A study of Mus musculus with 30 samples.

Results

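The gene Stk11, which encodes the kinase LKB1, and 9 genes of its complex and of the AMPK pathway were followed in the colon of 30 mice. The 10 genes were chosen by name, and they were Stk11, its partners Strada and Cab39, the AMPK subunit genes Prkaa1, Prkaa2, Prkab1, Prkab2, Prkag1 and Prkag2, and the downstream gene Tsc2. They are 10 of 46078 genes in the count table, and all 10 passed the filter on low counts in every comparison. The mice were C57BL/6J males (M) and females (F) with intact ovaries, and each of 5 groups held 6 libraries. The control diet groups (CD F and CD M) and the high-fat diet groups (HFD F and HFD M) were fed for 13 weeks and received vehicle over the last 3 weeks in 9 intraperitoneal injections. The HFD+E2 M group was fed HFD in the same way and received estradiol (E2) at 0.5 mg/kg body weight in place of vehicle. There were no E2-treated females and no E2-treated mice on CD, and per the study's methods the mice were 5 to 6 weeks old when they were obtained. RNA came from whole pieces of colon, so the libraries mixed epithelium, muscle and other cells, and fewer cells of a type cannot be told apart from less RNA per cell.

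LKB1 is a serine/threonine kinase that is held in an active complex by the pseudokinase STRAD and the scaffold protein MO25, the products of Strada and Cab39. It phosphorylates the catalytic alpha subunit of AMPK, the cellular energy sensor, and a set of AMPK-related kinases. Active AMPK restrains fat and protein synthesis, in part by phosphorylating tuberin, the product of Tsc2, which keeps the growth kinase complex mTORC1 off. In the intestine LKB1 is best known as a tumor suppressor, since inherited loss of one copy causes hamartomatous polyps (Peutz-Jeghers syndrome).

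Stk11 lies on the plus strand of chromosome 10 (GRCm38, chr10:80115803-80130682), and its longest transcript was 59.5% G or C. The other 9 genes had GC contents between 40.2% (Prkaa1) and 55.0% (Prkab1). The 250 bases before the RefSeq start of Stk11 (GRCm38.p6, chr10:80115545-80115794, plus strand) are shown because Stk11 was the member with the widest differences between groups. Capitals mark the 24 CpG dinucleotides, against a median of 6 in 32851 RefSeq windows of the same length. The windows of Prkaa2, Prkab1 and Tsc2 also held 24, and the other members ran from 4 (a window of Prkag2) to 45 (Prkaa1). The GC contents above and the GC index used further on are of transcripts and not of these windows.
Stk11: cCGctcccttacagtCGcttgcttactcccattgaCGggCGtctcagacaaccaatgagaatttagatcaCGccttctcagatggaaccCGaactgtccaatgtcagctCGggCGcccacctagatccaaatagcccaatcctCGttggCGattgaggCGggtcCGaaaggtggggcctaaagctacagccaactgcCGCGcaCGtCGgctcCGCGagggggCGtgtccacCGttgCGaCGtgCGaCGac
Of 4 motifs searched on both strands, this window held none. The palindromic estrogen response element, GGTCA and TGACC 3 bases apart, was found in 0 of 12 windows of the 10 genes (Prkag2 has 3 annotated starts) and in 0.06% of all windows. The AP-1 site TGANTCA was also in 0 of 12, against 6.75% of all windows, as was the E-box CACGTG, against 6.02%. The GC box GGGCGG was in 8 of 12 windows, belonging to Strada, Cab39, Prkaa1, Prkaa2, Prkab2, Prkag1 and Prkag2, against 32.74% of all windows. A match or its absence describes only these letters in these windows.

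The libraries held between 8667177 and 17243712 counts (median 11530916), of which 26.1% to 38.0% came from mitochondrial genes. Markers of colon epithelium such as Epcam, Krt8 and Vil1 were detected in every library. Markers of stratified squamous epithelium stood apart in 4 of 6 HFD F and 2 of 6 HFD M libraries, where their mean log2 CPM (counts scaled to library size) was above 1, and in no library of the other groups. Over all libraries this score ran from −1.97 to 6.17, with Krt5 at 0 counts in 10 libraries and Krt14 at 0 in none. Comparisons that hold such libraries are also given without them.

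The complex genes differed widely in level. Levels between genes are compared in TPM, which corrects for transcript length. Cab39 was the most abundant of the 10 genes with 105 ± 14.8 TPM (SD over 30 libraries), and Strada the least with 4.60 ± 0.876 TPM. Stk11 lay between them with 18.6 ± 4.37 TPM and 168 to 598 counts per library. Strada was also the member with the fewest counts, 72 to 214 per library, so its values carry the widest counting error. 158 exonic bases of Strada (2.8%) are shared with Ccdc47 on the same strand, which averaged 892 counts against 106 for Strada.

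Stk11 was lowest in HFD M. In CD F it ranged from 14.8 to 25.0 TPM with a median of 19.7, and in CD M from 13.8 to 24.2 TPM with a median of 20.5. In HFD F the range was 10.7 to 20.8 TPM with a median of 18.4. HFD M ran from 10.9 to 19.4 TPM with a median of 14.8, and HFD+E2 M from 13.6 to 29.4 TPM with a median of 19.1. All 5 ranges overlapped. By mean TPM the order was HFD+E2 M (20.4), CD M (20.1), CD F (20.0), HFD F (17.5) and HFD M (15.2), and no neighbours in this order differed by more than either group's SD (3.44 to 5.80 TPM).

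**Figure D1:**
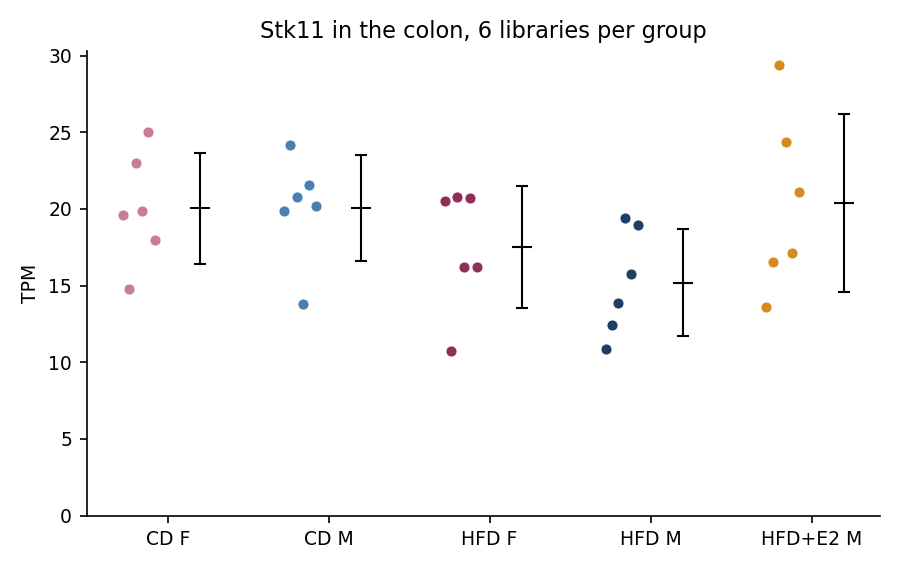
Stk11 level in TPM (y axis) in the 5 groups (x axis), 1 point per library, with the mean and SD as bars to the right of the points. The means of the CD groups and of HFD+E2 M lie at 20.0 to 20.4 TPM, HFD F at 17.5 and HFD M at 15.2, and the ranges overlap.

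The AMPK subunit genes were all expressed. Of the alpha subunits, which carry the kinase domain, Prkaa2 (27.6 ± 6.36 TPM) exceeded Prkaa1 (18.3 ± 3.31 TPM), so that Prkaa1 made up 40.2% ± 3.34 of alpha subunit TPM (SD, 30 libraries). The share was 44.1% ± 2.41 in CD F and 38.6% to 40.0% as the mean of each other group. Prkab1 (31.9 ± 3.41 TPM), the gene of one of the scaffolding beta subunits, made up 80.1% ± 2.80 of beta subunit TPM, with Prkab2 at 7.90 ± 1.30 TPM. Of the nucleotide-binding gamma subunits, Prkag1 (27.99 ± 4.98 TPM) made up 56.7% ± 5.57 and Prkag2 (21.4 ± 4.61 TPM) the rest of the TPM of this pair. The third gamma gene, Prkag3, had 0 to 11 counts per library and did not pass the filter on low counts in edgeR. The sums were close to each other, with 45.9 ± 9.27 TPM of alpha, 39.8 ± 3.90 TPM of beta and 49.4 ± 7.79 TPM of gamma subunits over the 30 libraries. Tsc2 was expressed at 12.2 ± 1.42 TPM. It shares 693 exonic bases (7.2%) with Pkd1 on the opposite strand, which had 1568 counts on average against 689 for Tsc2. The library kit kept strand, but the strand setting of the counting is not given in the sources used here, so the part of Pkd1 reads in the Tsc2 counts was not tested.

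**Figure D2:**
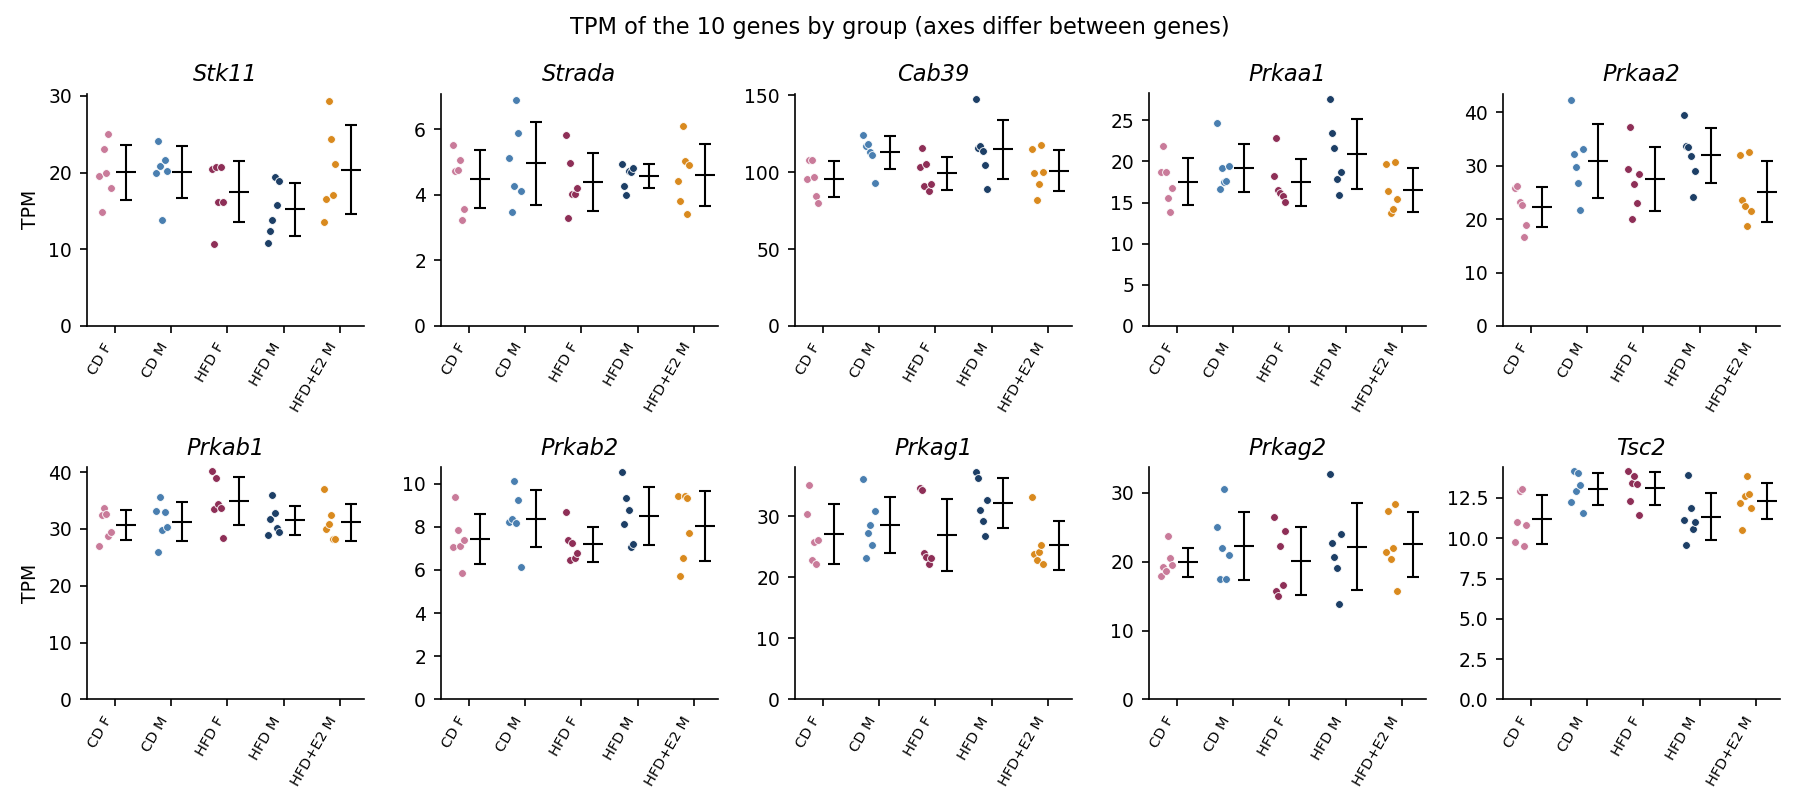
TPM of each of the 10 genes (y axis, a scale of its own for each gene, from 0) in the 5 groups (x axis), 1 point per library, with mean and SD bars. Cab39 lies near 105 TPM and Strada near 4.60, and for every gene the ranges of the groups overlap.

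Differences between groups were tested on counts, so that fold changes below are log2 differences in CPM and not in TPM. What is called the study's threshold here was a p under 0.05 with a log2 fold change beyond 0.4. The study's methods give this cut-off as a p-value and name the Benjamini-Hochberg FDR apart from it, without calling the cut-off adjusted. It was therefore taken as unadjusted. The adjusted threshold was a Benjamini-Hochberg adjusted p under 0.05 over all genes tested. HFD M served in 3 of the comparisons (against CD M, HFD+E2 M and HFD F) and in the interaction, so these results share its 6 libraries. From these same libraries the study had named Stk11 as lowered by HFD and raised by E2 in males. The calls of Stk11 in those comparisons therefore repeat a known result and add no independent support. Beyond the sequencing, the paper states that qPCR backed the changes of the genes it listed there, Stk11 among them. It also reports a binding site of estrogen receptor beta for Stk11 by ChIP-seq in human colorectal cancer cell lines. Neither kind of evidence was examined here. Nothing in the labels ties a library to a cage or batch. Within each group the sample numbers in the labels rise with the replicate number. What that order stands for is not given, and an effect of it was not tested. The replicate block described below follows replicate numbers, and libraries that share a replicate number have different sample numbers.

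To ask how HFD acted in males, HFD M was compared with CD M. Stk11 was lower in HFD M by 0.43 on the log2 scale (log2 fold change −0.43, SE 0.18, edgeR adjusted p = 0.82), and it was the 1 member of 10 past the study's threshold, which 2.9% of the 14991 genes tested passed. In CPM and in TPM 6 of 6 HFD M libraries lay below the median of CD M, and on TMM-scaled log2 CPM 5 of 6 did. In CPM the 6 HFD M libraries split, with replicates 1 to 3 at 11.8, 17.1 and 19.9 and replicates 4 to 6 at 25.8, 26.1 and 25.8, while CD M spanned 22.3 to 34.9. An exact two-sided permutation test on log2 CPM gave p = 0.0563, and on log2(TPM + 1) p = 0.0433. No member passed the adjusted threshold, which 0% of genes passed in this comparison, while 2 members and 904 genes (6.03%) had an unadjusted p under 0.05 by edgeR. By DESeq2 it was 1 member, Stk11, and 26 genes were called after adjustment, 0 of them members. The log2 fold change ran from −0.52 to −0.31 when any 1 of the 12 libraries was left out, and the call was lost in 5 of these 12 fits (without CD M replicate 2 or 5, or without HFD M replicate 1, 2 or 3).

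Tsc2 was the other member with an unadjusted p under 0.05 by edgeR in this comparison (−0.23, SE 0.11, edgeR adjusted p = 0.823), short of the fold minimum. Its levels were 11.6 to 14.2 TPM in CD M (median 13.1) and 9.55 to 13.9 TPM in HFD M (median 11.1). The groups overlapped, since HFD M replicate 3 reached 13.9 TPM. The LKB1 partners and AMPK subunits stayed between −0.14 (Strada, SE 0.16) and 0.14 (Prkag1, SE 0.09), and none of these 8 had an unadjusted p under 0.05 by edgeR or DESeq2. The median of the 10 members was −0.05 and that of all genes tested was −0.01.

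E2 in HFD males was addressed by comparing HFD+E2 M with HFD M. Stk11 was higher in HFD+E2 M by 0.48 on the log2 scale (SE 0.19, edgeR adjusted p = 0.461), again as the 1 member of 10 past the study's threshold, which 5.87% of 15010 genes passed. In CPM and in TPM 5 of 6 HFD+E2 M libraries lay above the HFD M median. HFD+E2 M replicates 1 (20.0 CPM) and 5 (24.9 CPM) fell within the HFD M range, and replicate 4 was the highest of all 30 libraries at 41.8 CPM. The exact permutation test on log2 CPM gave p = 0.0519, and on log2(TPM + 1) p = 0.0952. Leaving out 1 library at a time kept the direction in all 12 fits, with values of 0.37 to 0.59, and the call was lost only without HFD M replicate 1, where the change was 0.37. No member passed the adjusted threshold, which 0.00666% of genes passed (1 gene). By edgeR and by DESeq2 2 members had an unadjusted p under 0.05, as did 10.2% of all genes tested by edgeR (1535 genes), and DESeq2 called 38 genes after adjustment, 0 of them members.

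Tsc2 was 0.28 higher on the log2 scale in HFD+E2 M (SE 0.11, edgeR adjusted p = 0.461), and above the HFD M median lay 6 of 6 libraries in CPM and 5 of 6 in TPM. HFD+E2 M ranged from 10.5 to 13.8 TPM (median 12.4) and HFD M from 9.55 to 13.9 TPM, so the ranges overlapped in full. The alpha subunit genes had negative values, Prkaa1 −0.16 (SE 0.11) and Prkaa2 −0.18 (SE 0.12), as did Prkag1 (−0.17, SE 0.10), with edgeR adjusted p between 0.532 and 0.587. The permutation test on log2 CPM gave an exact p of 0.0433 for Prkag1, which was not adjusted over the members. Strada, Cab39, Prkab1, Prkab2 and Prkag2 lay between 0.03 and 0.18. The scale mattered for some of these genes. Cab39 was above the HFD M median in 6 of 6 HFD+E2 M libraries in CPM, 3 of 6 on TMM-scaled log2 CPM and 1 of 6 in TPM. Prkab1 was above it in 4 of 6 in CPM and 2 of 6 in TPM, and Prkab2 in 5 of 6 and 3 of 6. Prkaa1 and Prkaa2 were each below it in 5 of 6 in CPM and 6 of 6 in TPM.

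In females no member passed either threshold for HFD against CD without a covariate. Stk11 was −0.22 on the log2 scale in HFD F against CD F (SE 0.18, edgeR adjusted p = 0.999), with 4 of 6 HFD F libraries below the CD F median in CPM (3 of 6 in TPM) and HFD F replicate 2 (15.8 CPM) the lowest. Of 15061 genes, 3.67% passed the study's threshold and 0.0199% the adjusted one. No member had an unadjusted p under 0.05 by edgeR, against 5.68% of all genes, and DESeq2 called 0 members under either threshold. Prkaa2 had the largest positive value (0.21, SE 0.11, edgeR adjusted p = 0.972). This comparison holds 4 of the libraries with squamous markers. Without them Prkaa2 was at 0.47 (SE 0.13), past the study's threshold, and Stk11 at −0.49 (SE 0.26), not past it, with 2 HFD F libraries left. With the smooth muscle score as a covariate Stk11 was −0.41 (SE 0.14), past the study's threshold.

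Whether the HFD response differed between the sexes was tested as an interaction over the 4 vehicle groups. For Stk11 the female response exceeded the male by 0.20 on the log2 scale (SE 0.27, edgeR adjusted p = 0.891), so the responses were not told apart. Its sign turned in 3 fits, to −0.17 (SE 0.22) with the smooth muscle score, −0.075 (SE 0.17) with the GC index described below and −0.052 (SE 0.36) without the libraries with squamous markers. Tsc2 gave 0.37 (SE 0.15, edgeR adjusted p = 0.679), from 0.14 (SE 0.11) in females and −0.23 (SE 0.11) in males. It was the 1 of 10 members with an unadjusted p under 0.05 by edgeR and by DESeq2 and fell short of the fold minimum. Without the libraries with squamous markers it was 0.19 (SE 0.21), and with the GC index as a covariate 0.26 (SE 0.13), and in neither was its unadjusted p under 0.05. With all 24 libraries no member passed the study's threshold, passed by 5.18% of 15800 genes, or the adjusted threshold, passed by 0% (7 genes by DESeq2, and 1066 genes at an unadjusted p under 0.05 by edgeR). DESeq2 called 0 members under either threshold. Without the libraries with squamous markers Prkaa2 passed the study's threshold at 0.48 (SE 0.19).

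Sex differences were compared on each diet. On CD, Prkaa2 was lower in females by 0.35 on the log2 scale (log2 fold change −0.35, SE 0.11, edgeR adjusted p = 0.116, exact permutation p = 0.0325). CD F ranged from 16.7 to 26.3 TPM (median 23.0) and CD M from 21.7 to 42.3 TPM (median 31.0), so the ranges overlapped between 21.7 and 26.3 TPM. Prkag2 was the other member with an unadjusted p under 0.05 by edgeR and by DESeq2 (−0.20, SE 0.09, edgeR adjusted p = 0.269). These 2 of 10 members stand against 14.8% of all genes tested by edgeR (2207 genes). Stk11 did not separate the sexes on CD (0.06, SE 0.16, edgeR adjusted p = 0.907). No member passed the study's threshold, which 9.15% of 14922 genes passed, or the adjusted threshold, which 2.92% passed, and DESeq2 called 0 under both. All 10 smooth muscle markers were lower in CD F past the study's threshold, and their mean log2 CPM was 8.52 to 9.20 in CD F against 8.99 to 9.72 in CD M. With that score as a covariate Stk11 was 0.48 higher in CD F (SE 0.20) and Prkaa2 lower by 0.52 (log2 fold change −0.52, SE 0.15), both past the study's threshold. The score itself differed by sex and its ranges overlapped only from 8.99 to 9.20. This fit therefore separates sex from the score poorly.

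On HFD 1 member had an unadjusted p under 0.05 by edgeR (Tsc2) and 2 by DESeq2 (Tsc2 and Prkag1), against 5.09% of all genes by edgeR. Tsc2 was 0.28 higher in HFD F than in HFD M (SE 0.11, edgeR adjusted p = 0.872, exact permutation p = 0.0346), with 6 of 6 HFD F libraries above the HFD M median and a range of 11.4 to 14.2 TPM in HFD F. Prkag1 was at −0.19 in HFD F against HFD M (SE 0.09, edgeR adjusted p = 0.872, exact permutation p = 0.0325), with 5 of 6 HFD F libraries below the HFD M median on TMM-scaled log2 CPM and 4 of 6 in CPM and TPM. Stk11 was 0.26 higher (SE 0.20, edgeR adjusted p = 0.878). With the GC index as a covariate it was 0.018 (SE 0.12), and with the smooth muscle score 0.40 (SE 0.15), just short of the fold minimum. No member passed the study's threshold (3.09% of 15179 genes did) or the adjusted one (0.0988% did), and DESeq2 called 0 under both. Without the libraries with squamous markers Tsc2 was at 0.10 (SE 0.20) and Stk11 at 0.00 (SE 0.33), with 2 HFD F and 4 HFD M libraries in the fit.

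**Figure D3:**
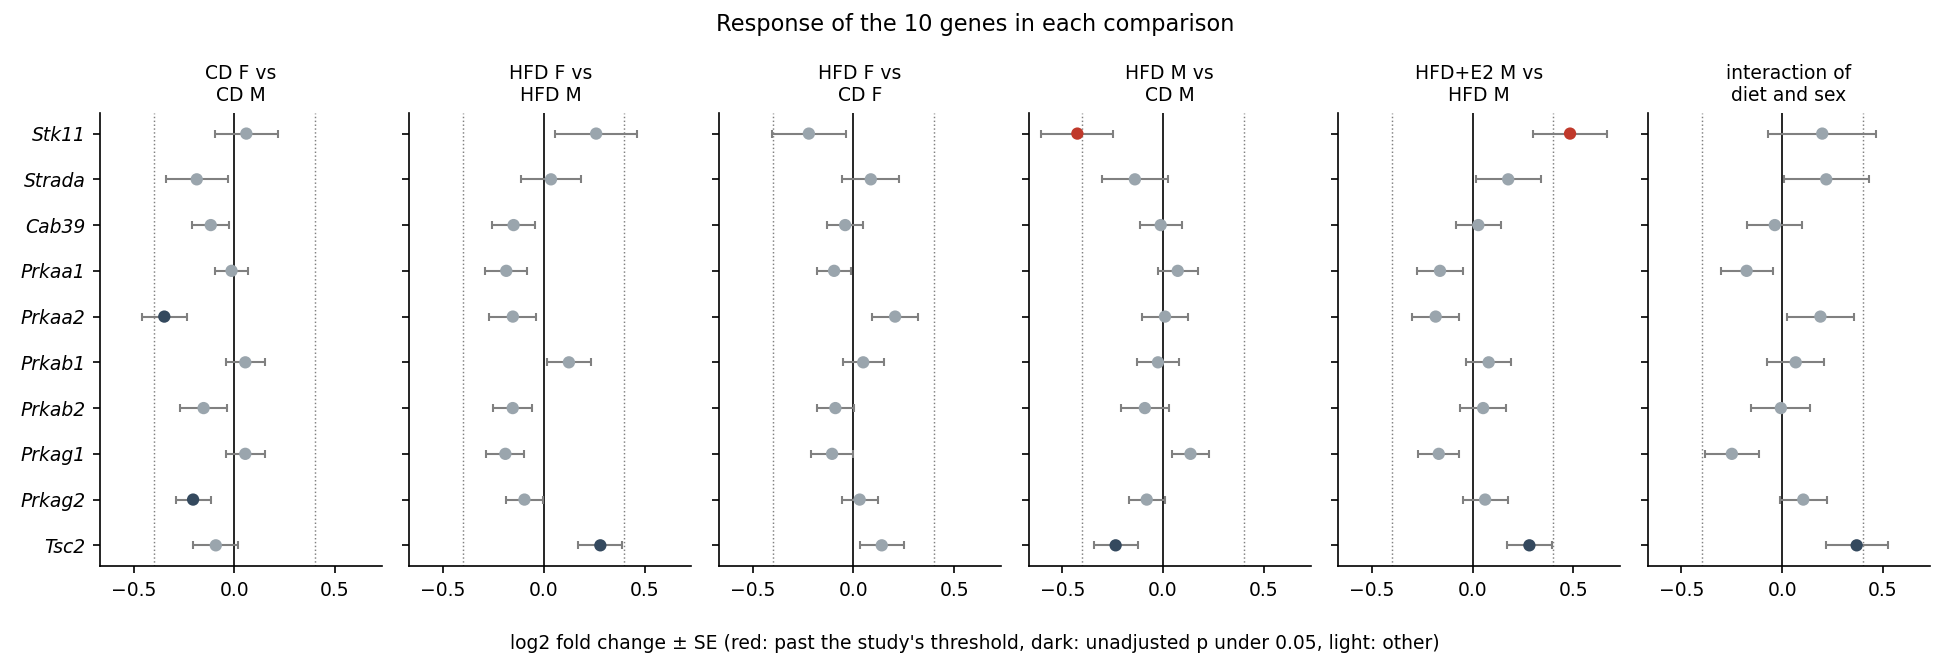
Log2 fold change (x axis) with its SE for the 10 genes (y axis) in the 5 comparisons and for the interaction of diet and sex, with dotted lines at 0.4 in either direction. Stk11 alone passes the study's threshold, at −0.43 in HFD M against CD M and at 0.48 in HFD+E2 M against HFD M (red), while Tsc2, Prkaa2 and Prkag2 have points with an unadjusted p under 0.05 by edgeR (dark).

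Base composition of the libraries moved with Stk11. A GC index was taken for each library as the mean log2 CPM of GC-rich genes (at least 54.7% GC) minus that of GC-poor genes (at most 43.3%), over 4378 genes. It was lowest in HFD M replicates 1 (−1.60) and 2 (−1.09), HFD F replicate 2 (−0.94) and HFD M replicate 3 (−0.88), and these were the 4 libraries with the lowest Stk11 CPM. HFD+E2 M replicate 4 had the highest index (0.06) and the highest Stk11. Over 30 libraries Pearson's r between the index and Stk11 was 0.82 (Spearman's rho 0.719), it was 0.833 after group means were subtracted, and 0.702 without HFD M replicates 1 and 2. Both measures come from the same libraries, so this is a description. With the index as a covariate, Stk11 was −0.25 in HFD M against CD M (SE 0.11) and 0.19 in HFD+E2 M against HFD M (SE 0.12), and in neither was it past the study's threshold. In HFD F against CD F it was −0.31 (SE 0.13). The unadjusted p was under 0.05 in the first and last of these 3 comparisons. Neither the source of the GC differences nor their part in the Stk11 differences was tested beyond these fits.

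**Figure D4:**
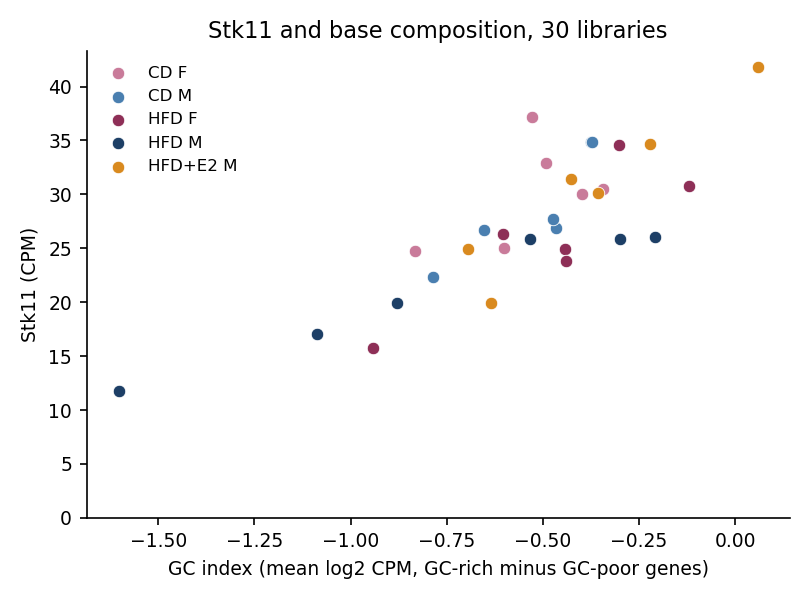
Stk11 in CPM (y axis) against the GC index of the library (x axis, difference in mean log2 CPM), 1 point per library, coloured by group. Stk11 climbs with the index (r = 0.82 on the log2 scale), from HFD M replicate 1 at 11.8 CPM and −1.60 to HFD+E2 M replicate 4 at 41.8 CPM and 0.06.

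The genes whose log2 CPM was most like that of Stk11, among 10973 genes with at least 5 CPM on average, were Foxp4 (r = 0.942 over 30 libraries), Prrc2a (0.922), Zc3h18 (0.921), Cactin (0.908) and Ccdc85c (0.907). Their GC contents were 53.9% to 63.4%. After group means were subtracted the values for these 5 genes were 0.91 to 0.953. Within the 10 genes, Tsc2 was the most like Stk11 (r = 0.72) and Strada the next (0.491). Prkaa1 (−0.574), Prkaa2 (−0.59) and Prkag1 (−0.52) moved opposite to it, and Cab39 (0.002) and Prkag2 (0.036) not with it. Prkaa1 (40.2%), Strada (40.4%) and Prkaa2 (40.7%) had the lowest GC contents of the members, and Stk11 the highest. GC content and r did not share one order, since r was positive for Strada and negative for Prkag1 (52.8% GC). Prkab1, with 55.0% GC, had an r of 0.338.

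**Figure D5:**
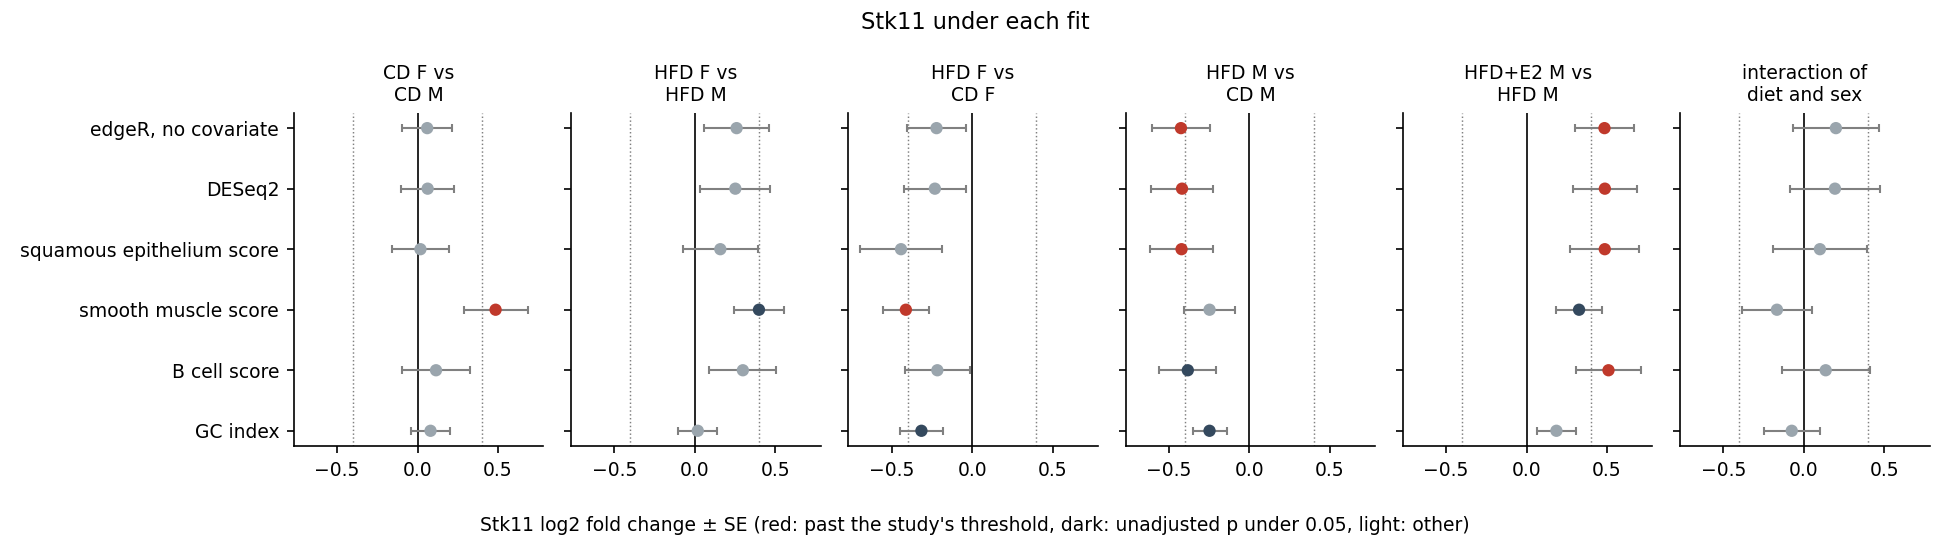
Stk11 log2 fold change (x axis) with its SE in each comparison under 6 fits (y axis), namely edgeR without a covariate, DESeq2, and edgeR with a squamous epithelium, smooth muscle or B cell score or the GC index as covariate, with dotted lines at 0.4 in either direction. In HFD M against CD M and in HFD+E2 M against HFD M the values are nearest to 0 with the GC index or the smooth muscle score, −0.25 and −0.25 in the first and 0.19 and 0.33 in the second.

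Tissue makeup was examined in the same way for both comparisons in which Stk11 passed the study's threshold. Smooth muscle scores were 8.99 to 9.72 in CD M, 8.80 to 9.65 in HFD M and 9.03 to 9.85 in HFD+E2 M. With this score as a covariate Stk11 was −0.25 (SE 0.16) in HFD M against CD M and 0.33 (SE 0.14) in HFD+E2 M against HFD M, neither past the study's threshold. The B cell score was −1.61 to 3.70 in HFD M, −0.92 to 3.22 in CD M and 1.21 to 3.70 in HFD+E2 M. With it Stk11 was −0.38 (SE 0.18) and 0.51 (SE 0.20), and the call was kept for E2 alone. Stk11 was as large without the 2 HFD M libraries with squamous markers, at −0.45 (SE 0.21) against CD M and 0.50 (SE 0.21) for E2, both past the study's threshold.

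Other genes of the pathway were taken from 5 lists with 59 genes, comprising further activators of AMPK, AMPK-related kinases, mTORC1, the sestrin and autophagy branch, and metabolic AMPK targets. Of these, 57 passed the filter on low counts and were tested by edgeR in each comparison, Prkag3 and Brsk2 did not, and DESeq2 gave a p for all 59. None passed the adjusted threshold in any comparison by edgeR, while DESeq2 called 1 gene, Camkk2, on CD. On CD, Camkk2, a calcium-dependent activating kinase of AMPK, was the 1 gene past the study's threshold by edgeR (1.75% of the 57 genes, against 9.15% of all genes), and 2 genes had an unadjusted p under 0.05, against 14.8% of all genes. DESeq2 put 3 of 59 past the study's threshold, where it put 1745 of all genes, and it called 774 of all genes after adjustment. The 3 were Camkk2, the AMPK-related kinase gene Mark1 (−0.40, SE 0.20, adjusted p = 0.346) and Prkag3 (−1.58, SE 0.73, adjusted p = 0.271), the last on 0 to 11 counts per library. Camkk2 was lower in females (log2 fold change −0.50, SE 0.14, edgeR adjusted p = 0.0584, DESeq2 adjusted p = 0.0234), at 1.08 to 2.17 TPM in CD F and 1.59 to 3.20 TPM in CD M. Its interaction of diet and sex was 0.53 (SE 0.20, edgeR adjusted p = 0.653), the 1 of 57 past the study's threshold there, against 5.18% of all genes. For E2 the 1 gene past it, against 5.87% of all genes, was Nuak1, an AMPK-related kinase activated by LKB1, at 0.54 (SE 0.20, edgeR adjusted p = 0.456) with 0.727 to 1.05 TPM in HFD+E2 M against 0.556 to 0.92 TPM in HFD M, and 6 of 57 genes had an unadjusted p under 0.05 by edgeR, against 10.2% of all genes. In the HFD comparisons of either sex and in the sex comparison on HFD, 0 of 57 genes passed the study's threshold, with 1 (HFD F against CD F), 2 (HFD M against CD M) and 3 (HFD F against HFD M) at an unadjusted p under 0.05 by edgeR, against 5.68%, 6.03% and 5.09% of all genes.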

How the data were processed

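Colon RNA of 30 mice was sequenced as ribosomal RNA-depleted, stranded total RNA. Per the labels and methods, the authors trimmed reads with Trim Galore, aligned them with STAR to the mouse genome (mm10, the same as GRCm38), counted reads per gene with featureCounts and estimated abundance with StringTie. Deposited were a table of raw counts and, for each library, a table of TPM, and both were used as deposited. In all 30 libraries the counts matched their own TPM table best, and 0 pairs of libraries held identical counts. Groups came from the sample titles.

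The 10 genes, the pathway lists and the marker lists were chosen with earlier results of these data known. Counts of each pair of groups were fitted with edgeR 4.0.16 (R 4.3.3), with filterByExpr, TMM scaling and a robust quasi-likelihood test, and p-values were adjusted over all genes tested. Log2 CPM used a prior count of 2. DESeq2 1.42.0, other filters and scalings, a replicate block, marker scores and a GC index as covariates, and leaving out libraries served as alternatives, of which the GC index and the fits without libraries with squamous markers were chosen after seeing the data. Single genes were tested with exact two-sided permutation tests (SciPy 1.17.1). Labels do not say whether libraries differ in more than the animal, and p-values measure only the spread between them. Marker scores were the mean log2 CPM of a list's genes with over 0.1 CPM on average. Named were all 10 genes, the genes of each pathway list past a threshold (up to 3 by p where none passed the adjusted one), genes overlapping a member and the 5 genes most like Stk11 among those with at least 5 CPM. Counts of 14922 genes were simulated for the CD F against CD M comparison, and calls were made at the adjusted threshold. By edgeR 154 of 195 changed genes (2-fold) were called in the right direction, with 11 unchanged ones. By DESeq2 169 of 200 were called in the right direction, with 31 unchanged ones. Smaller changes and the study's threshold were not simulated.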

Additional observations from a re-analysis of the deposited data

Results flagged for a closer look

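Of 50 tests, 1 for each of the 10 genes in each group of 6, for a library far from the rest of its group, 2 exceeded Dixon's critical value of 0.625, and chance gives about 1 in 20. Cab39 in HFD M replicate 6 stood at 7.83 log2 CPM, with a gap of 0.683 of the group's range to the nearest library. Prkaa1 in HFD F replicate 2 stood at 6.17 log2 CPM, with a gap of 0.63 of the range. That library also had the lowest GC index of HFD F (−0.94). The response of Tsc2 to HFD differed between females and males by 0.37 on the log2 scale (SE 0.15) at an unadjusted p under 0.05, which missed the threshold after adjustment over all genes (edgeR adjusted p = 0.679) and ran from 0.31 to 0.44 with any 1 of the 24 libraries left out.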

How the results depend on the processing

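The precision is limited by 6 libraries per group and, for Stk11 and Strada, by 168 to 598 and 72 to 214 counts per library. Below, values are log2 fold changes of Stk11 unless a gene is named, and the causes of the changes were not tested. DESeq2, DESeq2 size factors in edgeR, both filters on low counts and a fit of all 30 libraries kept the direction and the call of Stk11 and the member counts in every comparison and in the interaction.

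With the smooth muscle score as covariate Stk11 came to 0.48 in CD F against CD M and −0.41 in HFD F against CD F, both then past the study's threshold, and to −0.25 in HFD M against CD M and 0.33 for E2, both no longer past it, and its interaction turned to −0.17. With the B cell score it came to −0.38 in HFD M against CD M, no longer past it, and with the GC index to −0.25 there, to 0.19 for E2, and its interaction to −0.075. Members past the study's threshold then numbered 2 in CD F against CD M with the smooth muscle score and 1 with the B cell score, against 0. In HFD F against CD F there was 1 with the squamous or smooth muscle score or without the libraries with squamous markers, against 0. In HFD M against CD M there were 0 with the smooth muscle score, B cell score or GC index, and for E2 0 with the smooth muscle score or GC index, against 1. Without the libraries with squamous markers the Stk11 interaction was −0.052 and 1 member (Prkaa2, 0.48) passed there, against 0. By exact permutation on log2(TPM + 0.1) and log2(TPM + 1), Stk11 in CD F against CD M was −0.0018 and −0.0019 (0.052 on log2 CPM), and in HFD M against CD M −0.41 and −0.39 with p under 0.05.

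With 1 library left out at a time, Stk11 ran from −0.045 to 0.13 in CD F against CD M, where CD F replicate 5 or CD M replicate 1 decided the sign, from −0.52 to −0.31 in HFD M against CD M and from 0.37 to 0.59 for E2. Members past the study's threshold ran from 0 to 1 in CD F against CD M (Prkaa2, −0.42, without CD M replicate 5), HFD M against CD M, E2 and the interaction (Tsc2, 0.40 to 0.44, without CD F replicate 4, CD M replicate 1, HFD F replicate 2, or HFD M replicate 3 or 5).

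Replicate numbers are shared by the groups, but same-numbered libraries correlated between −0.218 and 0.468 in their deviations and not all above 0.1 in any comparison, so the numbers were not taken as pairs. With the replicate block 1 member (Prkaa2, −0.34, edgeR adjusted p = 0.0428) passed the adjusted threshold in CD F against CD M, against 0. The SE of Stk11 was smaller with the block. Stk11 was −0.45 in HFD M against CD M (SE 0.13, against 0.18 without it, edgeR adjusted p = 0.325). For E2 it was 0.49 (SE 0.13, against 0.19, edgeR adjusted p = 0.192). In HFD F against CD F it was −0.24 (SE 0.11, against 0.18, edgeR adjusted p = 0.733), with an unadjusted p under 0.05. The block changed no other count of members.

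Some values of the other 9 members changed sign. In CD F against CD M the values so changed were, with the smooth muscle score Strada 0.12, Cab39 0.10, Prkab2 0.16, Prkag1 −0.15 and Tsc2 0.25, with the B cell score Prkab2 0.046. In HFD F against HFD M the values so changed were, with the squamous score Strada −0.047, with the GC index Strada −0.059, without the squamous libraries Strada −0.20 and Prkaa2 0.12. In HFD F against CD F the values so changed were, with the squamous score Strada −0.14, Cab39 0.040, Prkaa1 0.011, Prkab1 −0.059 and Prkag2 −0.019, without the squamous libraries Strada −0.14, Cab39 0.029, Prkaa1 0.012, Prkab1 −0.084, Prkag2 −0.018 and Tsc2 −0.0077, with the smooth muscle score Prkab1 −0.038. In HFD M against CD M the values so changed were, with the smooth muscle score Cab39 0.028, Prkaa1 −0.015, Prkaa2 −0.050, Prkab1 0.036 and Prkab2 0.045, with the B cell score Cab39 0.012, Prkaa2 −0.0027 and Prkab1 0.0048, with the GC index Prkaa1 −0.018, Prkaa2 −0.054 and Prkab1 0.0068, without a filter Prkaa2 −0.0025, with the squamous score Prkaa2 −0.0021, without the squamous libraries Prkaa2 −0.020. In the interaction the values so changed were, without the squamous libraries Strada −0.011, Cab39 0.034, Prkab1 −0.019 and Prkab2 0.0073, with the squamous score Cab39 0.012 and Prkab1 −0.019, with the GC index Cab39 0.0096, with the smooth muscle score Prkab1 −0.078, without a filter Prkab2 0.0064, with at least 10 counts in every library Prkab2 0.011.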
